A study of Mus musculus with 8 samples.

Results

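Plasma cell genes are described here as 10 genes of the antibody-secreting cell programme, Jchain, Mzb1, Xbp1, Derl3, Tnfrsf17, Tnfrsf13b, Prdm1, Irf4, Pou2af1 and Sdc1, out of 25526 gene symbols listed in the deposited count tables. Members were taken by symbol, and all 10 symbols were listed in every table. The 10 were chosen by their higher levels at 2 years than at 12 weeks in these same libraries, so their differences between the ages are given below as a description and carry no test of their own. The study measured RNA in aortic tissue of male mice with 1 mutated copy of the fibrillin-1 gene, genotype MFS (Fbn1C1041G/+). There were 4 libraries at 12 weeks and 4 at 2 years, and the labels do not say whether each came from 1 mouse. Both groups carry the Fbn1 allele, a fibrillin-1 missense change used as a model of Marfan syndrome, so no comparison with mice without the allele is made here. The series set the younger age, with growing aneurysms, against the older age, with arrested growth. The sources used here give neither the strain nor the stretch of aorta taken, nor whether surrounding tissue was removed.

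Plasma cells arise from activated B cells and are specialised for secretion of antibody. The transcription factors Irf4 and Prdm1 (Blimp-1) start the switch from B cell to plasma cell, and Xbp1 then expands the endoplasmic reticulum (ER) through which antibody is made and exported. Plasma cells gather in bone marrow, in gut and in inflamed tissues, where stromal and myeloid cells supply survival ligands. In an artery wall they are mostly known from the outer coat and from lymphoid aggregates beside the vessel.

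Library totals ran from 16251986 counts (2 years replicate 3) to 33880690 (2 years replicate 1), and levels are given as CPM, the counts a gene would have in a TMM-adjusted library of 1000000 counts. The smooth muscle markers Myh11, Acta2, Tagln, Cnn1 and Smtn summed to between 27048 and 32453 CPM at 12 weeks and between 15577 and 24325 CPM at 2 years. At 2 years replicate 3 stood apart from the other libraries, with mitochondrial genes at 10.3% of counts against 4.14% to 7.33% elsewhere, and with mesothelial and epithelial markers at 394 CPM in sum against 93.1 to 139.7 CPM elsewhere. At 12 weeks replicate 3 held the most heart muscle RNA, with 5 markers at 715 CPM in sum against 72.8 to 145.9 CPM elsewhere. Results are therefore also given without these 2 libraries where that matters.

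The secretory effectors Jchain, Mzb1 and Derl3 went from near 0 at 12 weeks to clear expression at 2 years. Jchain encodes the chain that joins IgA and IgM into polymers. Its counts were 6, 3, 3 and 4 in 12 weeks replicates 1 to 4, and 7304, 15959, 4557 and 31550 in 2 years replicates 1 to 4. On the CPM scale the levels at 2 years were 208.4, 680.6, 296.3 and 1095 in replicates 1 to 4, against 0.111 to 0.262 at 12 weeks. The lowest 2-year library thus stood 795 times above the highest 12-week library, and replicate 4 stood 5.26 times above replicate 1. The fitted log2 fold change was 11.76 (SE 0.79, edgeR). Exact Poisson intervals at 95%, which cover counting error only, were 204 to 213 CPM in replicate 1, 670.1 to 691.2 in replicate 2, 288 to 305 in replicate 3 and 1083 to 1108 in replicate 4.

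Mzb1, an ER protein that assists antibody assembly, had 0 counts in all 4 libraries at 12 weeks. At 2 years it had 339, 467, 64 and 1170 counts in replicates 1 to 4, or 9.67, 19.9, 4.16 and 40.6 CPM. Against a floor of 3 counts over the 12-week group its mean was at least 623-fold higher, a bound that was at least 377-fold without 2 years replicate 4. Derl3, a component of the machinery that removes misfolded proteins from the ER and the derlin typical of secretory cells, was at 0.437, 0.424, 0.666 and 0.122 CPM at 12 weeks. It was at 2.25, 4.82, 1.24 and 8.44 CPM at 2 years, a log2 fold change of 3.33 (SE 0.63) that was 2.74 without 2 years replicate 4 and 3.96 without both libraries numbered 3. Both genes followed Jchain in being highest in replicate 4 and next in replicate 2, but were lowest in replicate 3, where Derl3 rested on 19 counts. The 95% Poisson interval of Derl3 there, 0.744 to 1.93 CPM, overlapped that in 12 weeks replicate 3, 0.395 to 1.05 CPM.

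The 4 regulators differed in how far they moved. Pou2af1, a coactivator of POU factors on immunoglobulin promoters in B and plasma cells, was at 0.162 to 0.259 CPM at 12 weeks, on 4 to 7 counts a library. At 2 years it was at 9.90, 18.6, 7.87 and 35.1 CPM in replicates 1 to 4, a log2 fold change of 6.39 (SE 0.59). Its lowest 2-year value lay 30.4 times above its highest 12-week value. Prdm1, the repressor that shuts down the B cell programme, was at 0.786, 1.001, 0.740 and 0.608 CPM at 12 weeks and 4.48, 5.37, 5.14 and 11.2 CPM at 2 years, which gave a log2 fold change of 3.06 with an SE of 0.35. Replicates 1 to 3 at 2 years lay close together in Prdm1 and replicate 4 stood apart.

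Irf4, which B cells, plasma cells, T cells and some myeloid cells all use, was already measurable at 12 weeks, at 3.54, 3.93, 6.99 and 4.01 CPM in replicates 1 to 4. It was at 10.9, 15.3, 8.32 and 30.9 CPM at 2 years, which gave a log2 fold change of 1.83 with an SE of 0.40. The gap between the groups was small, since the lowest 2-year value was 1.19 times the highest 12-week value. Xbp1, a transcription factor of the unfolded protein response that most cells express, was at 137.7, 114, 111 and 109 CPM at 12 weeks and 206, 228, 198.9 and 234 CPM at 2 years. Its log2 fold change of 0.88 (SE 0.13) was the smallest of the 10, and its 4 values at 2 years spanned only 1.18-fold.

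The surface receptors also separated by age. Tnfrsf17 (BCMA), the receptor for the survival ligand APRIL that is typical of plasma cells, was at 0.713, 1.66, 1.82 and 2.47 CPM in 2 years replicates 1 to 4 on 25 to 71 counts. At 12 weeks it was at 0.262, 0.116, 0.0740 and 0.527 CPM. Its log2 fold change of 2.75 (SE 0.59) went to 3.44 without 12 weeks replicate 4 and to 1.87 with an offset for transcript length and GC share. Tnfrsf13b (TACI), which binds both BAFF and APRIL and is carried by B cells as well, was at 3.54, 2.12, 2.22 and 2.39 CPM at 12 weeks and 9.10, 16.8, 13.3 and 18.9 CPM at 2 years, a log2 fold change of 2.50 with an SE of 0.26. Sdc1 (CD138), a heparan sulphate proteoglycan that marks plasma cells but is also carried by epithelial and stromal cells, was at 31.5, 29.0, 33.1 and 33.9 CPM at 12 weeks. At 2 years it was at 63.1, 92.4, 121.2 and 78.4 CPM, with a log2 fold change of 1.47 and an SE of 0.18, and it was the only member that peaked in replicate 3.

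**Figure D1:**
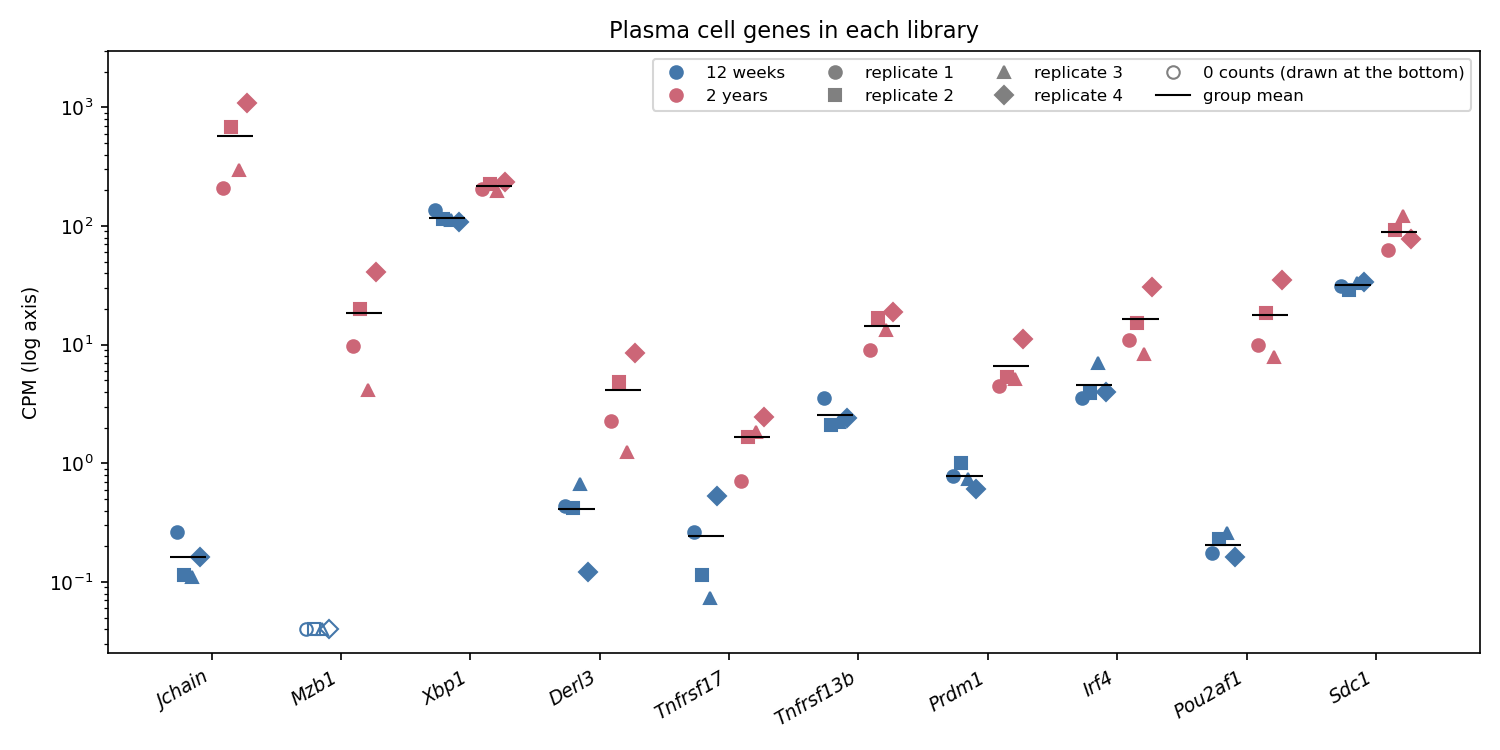
CPM of the 10 plasma cell genes in each library on a log axis, 12 weeks in blue and 2 years in red, with marker shape giving the replicate, black lines the group means and open symbols libraries with 0 counts. Jchain, Mzb1 and Pou2af1 show the widest separation of the ages, and Xbp1 has the smallest fold change.

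All 10 members passed the filter on low counts, 10 of 10 were called higher at 2 years (edgeR quasi-likelihood test, adjusted p below 0.05 over all genes tested), and in 10 of 10 every 2-year library lay above every 12-week library. For comparison, 52% of the 13978 genes tested were called in either direction, 25.8% were called higher and 24.3% had every 2-year value above every 12-week value. Since the members were picked with this contrast in view, nothing is read from these counts. The median log2 fold change of the members was 2.91, unchanged with Mzb1 at its bound, against -0.01 over all genes tested. In bulk tissue, more cells of a type and more RNA per cell cannot be told apart.

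Levels of different genes were compared only per length, as CPM per kilobase of the longest coding transcript. At 12 weeks Xbp1 stood first at 55.4 CPM per kilobase and Sdc1 next at 10.1, with the other members at 1.00 or below. At 2 years Jchain stood first at 409.3, then Xbp1 at 101.8, Sdc1 at 28.1, Mzb1 at 20.6 and Pou2af1 at 7.01. The rest followed with Tnfrsf13b at 5.68, Irf4 at 3.43, Derl3 at 3.17, Tnfrsf17 at 2.04 and Prdm1 at 1.24 CPM per kilobase. Among the libraries at 2 years the standard deviation of Jchain was 71.2% of its mean and that of Mzb1 86.4%. Jchain stood above Xbp1 and Mzb1 above Pou2af1 in each library at 2 years, whereas Mzb1 stood above Sdc1 in replicate 4 alone, and the neighbours Pou2af1 and Tnfrsf13b, Irf4 and Derl3, and Derl3 and Tnfrsf17 changed places between libraries. Xbp1 and Sdc1 were thus measured at 12 weeks in libraries with 0 counts of Mzb1, and which cells carried their RNA was not measured.

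The libraries at 2 years were not alike in plasma cell genes. Of the 10 members, 9 were highest in replicate 4 and 9 were at the second rank in replicate 2, and each member was lowest in replicate 1 (5 genes) or replicate 3 (5 genes). Among the 13291 genes with at least 10 counts in each library at 2 years, 24.2% were highest in replicate 4 and 32.8% were lowest in replicate 3. Relative to the mean of the 4 libraries, replicate 4 held 2.18 times the mean of Mzb1, 2.02 times that of Derl3, 1.96 times that of Pou2af1, 1.92 times that of Jchain and 1.89 times that of Irf4. For Prdm1 it held 1.71 times, for Tnfrsf17 1.48 times and for Tnfrsf13b 1.30 times the mean. For Xbp1 the ratio was 1.08 and for Sdc1 it was 0.883.

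The ratio of the highest to the lowest library at 2 years was 9.76 for Mzb1, 6.83 for Derl3, 5.26 for Jchain, 4.46 for Pou2af1, 3.71 for Irf4 and 3.46 for Tnfrsf17. It was 2.51 for Prdm1, 2.07 for Tnfrsf13b, 1.92 for Sdc1 and 1.18 for Xbp1, beside a median of 1.499 over those 13291 genes. The ratio for Mzb1 was larger than that of 99.7% of these genes, and the ratio for Xbp1 larger than that of 8.43%. Each of these differences rests on single libraries, so it has no replicate check. Replicate 1, lowest for 5 members, had the largest total count and replicate 3, lowest for the other 5, the smallest; the part of depth was not tested.

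**Figure D2:**
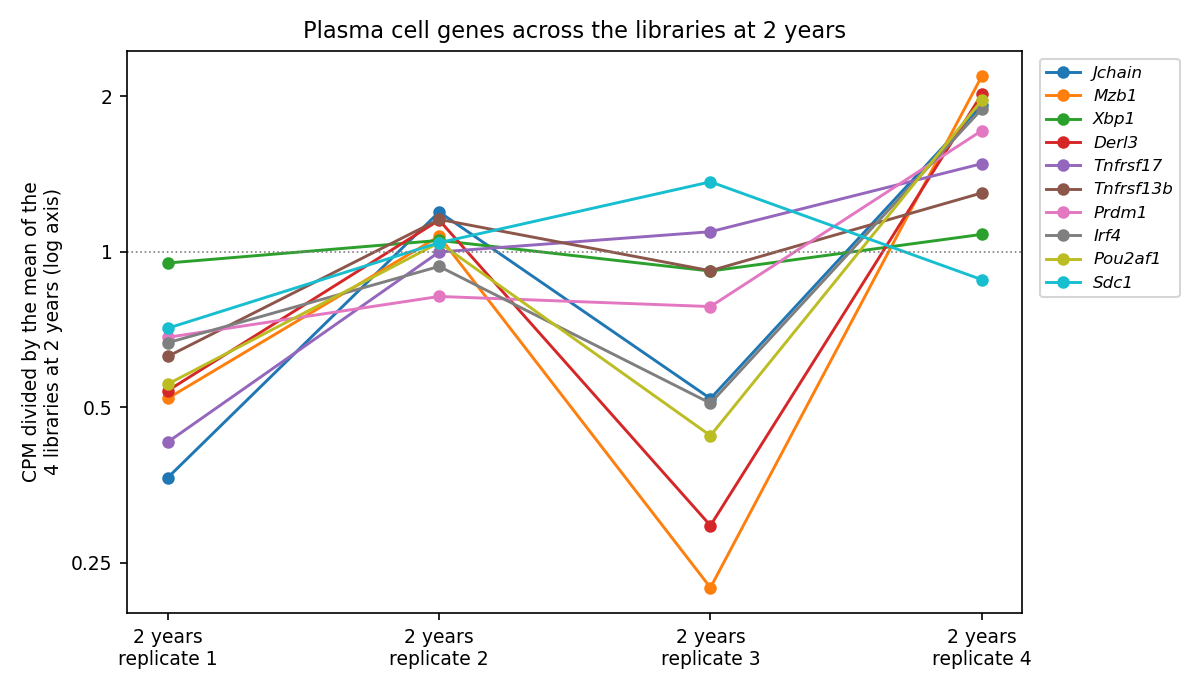
CPM of each plasma cell gene in the 4 libraries at 2 years, divided by the mean of those libraries, on a log axis, with a line joining the values of each gene and the dotted line at the mean. Replicate 4 is highest for 9 of the 10 genes, Xbp1 stays near the mean throughout, and Sdc1 peaks in replicate 3.

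The proportions of members to each other were taken as counts per 1000 Jchain counts. The intervals cover counting error only and not the spread between libraries, so they do not test whether the mice differed. Per 1000 Jchain counts there were 46.4 Mzb1 counts in 2 years replicate 1, 29.3 in replicate 2, 14.04 in replicate 3 and 37.1 in replicate 4. The exact binomial 95% interval in replicate 3, 10.8 to 17.97, lay below those of the other 3 libraries, the nearest being 26.6 to 32.1 in replicate 2. Derl3 showed the same order, from 10.8 per 1000 in replicate 1 through 7.70 in replicate 4 and 7.08 in replicate 2 to 4.17 in replicate 3, where its interval of 2.51 to 6.52 overlapped that of replicate 2 (5.83 to 8.52). Tnfrsf17 went the other way, with 6.14 per 1000 in replicate 3 and 2.25 to 3.42 elsewhere, on 28 counts, and its interval there (4.08 to 8.89) overlapped that of replicate 1 (2.21 to 5.06). Pou2af1 was at 47.5 per 1000 in replicate 1 and 26.6 to 32.0 in the others.

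**Figure D3:**
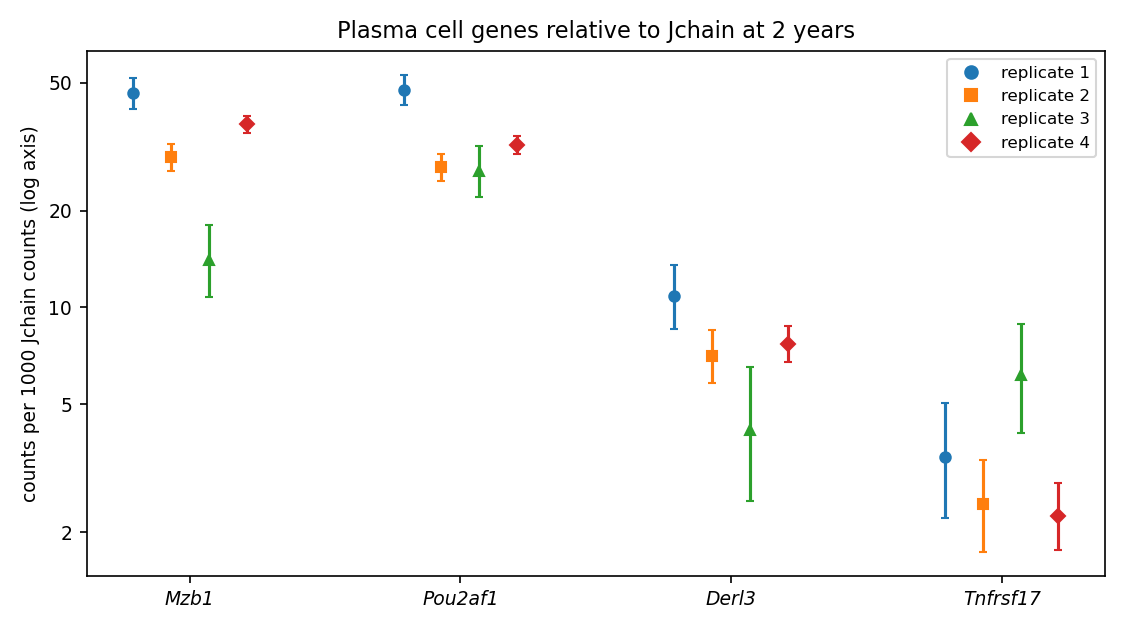
Counts of 4 plasma cell genes per 1000 Jchain counts in each library at 2 years, on a log axis, with exact binomial 95% intervals that cover counting error only. Replicate 3 is lowest for Mzb1 and Derl3 and highest for Tnfrsf17.

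The genes most like Jchain over the 4 libraries at 2 years were ranked by the root mean square difference of log2 CPM, each gene centred on its own mean, among 13020 other genes that were tested, had at least 10 counts in each of these libraries and bore no predicted or clone name (symbols such as Gm or Rik). The 8 nearest were Ly6d (0.13), Prg2 (0.21), Pls1 (0.23), Fcrla (0.27), Lax1 (0.32), Cd300e (0.33), Pou2af1 (0.34) and Eaf2 (0.37), beside a median of 0.97 over all of them. With 4 libraries such a ranking is a description only. Ly6d, a surface marker of early B lineage cells and of plasmacytoid dendritic cells, was at 3.02, 9.94, 4.36 and 13.2 CPM in replicates 1 to 4. Prg2 encodes eosinophil major basic protein and was at 0.685, 2.35, 1.11 and 5.56 CPM, while Fcrla is a B cell protein related to Fc receptors. Lax1, a lymphocyte adaptor, was at 5.55 to 6.66 CPM at 12 weeks and at 2.34, 4.39, 3.19 and 10.4 CPM at 2 years. It was the 1 gene of the 8 that was not called between the ages (log2 fold change -0.22), and without 2 years replicate 4 it was called lower (-0.85). Eaf2 was at 1.71, and its call was lost in 9 of 16 alternative fits. These included the fits without 2 years replicate 4 (0.89) and without any 1 of 12 weeks replicates 2, 3 and 4 (1.52 to 1.68). Among the other members Irf4 followed at 0.45, Derl3 at 0.48, Tnfrsf17 and Prdm1 at 0.58 each, Tnfrsf13b at 0.58, Mzb1 at 0.64, Xbp1 at 0.86 and Sdc1 at 0.99. Between pairs of members the nearest were Irf4 and Pou2af1 (0.17), Mzb1 and Derl3 (0.20) and Derl3 and Pou2af1 (0.25).

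Promoter sequences are shown for Jchain, the most abundant member per length, and for Derl3 and Pou2af1, a near pair (0.25) among the libraries at 2 years. Irf4 was nearer to Pou2af1 (0.17) and its window is not shown. The windows are the 250 bases before the annotated start, from RefSeq on GRCm38.p6, an older build than the GRCm39 named by the submitters. RefSeq windows were found for 9 of the 10 members, and not for Mzb1. Both strands were searched for the octamer ATGCAAAT, the Xbp1 element TGACGTGG, the ER stress response element (CCAAT and CCACG at the ends of 19 bases), the core CCACGT, the Irf4 composite element (GGAA and GAAA at the ends of 10 bases) and the Prdm1 core GAAAGTG, and matches are in capitals. The Jchain window is chr5:88527898-88528147 on the minus strand, that of Derl3 chr10:75893148-75893397 and that of Pou2af1 chr9:51213440-51213689, both on the plus strand.
Jchain: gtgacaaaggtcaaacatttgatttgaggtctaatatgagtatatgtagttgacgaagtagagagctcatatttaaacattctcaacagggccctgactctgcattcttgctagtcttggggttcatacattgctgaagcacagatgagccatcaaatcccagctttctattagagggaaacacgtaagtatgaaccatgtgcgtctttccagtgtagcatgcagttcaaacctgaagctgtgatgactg
Derl3: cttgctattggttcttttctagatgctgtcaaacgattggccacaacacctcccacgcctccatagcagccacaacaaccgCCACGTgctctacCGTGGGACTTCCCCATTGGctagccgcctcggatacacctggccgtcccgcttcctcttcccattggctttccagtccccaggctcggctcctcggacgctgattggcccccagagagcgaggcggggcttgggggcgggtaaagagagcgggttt
Pou2af1: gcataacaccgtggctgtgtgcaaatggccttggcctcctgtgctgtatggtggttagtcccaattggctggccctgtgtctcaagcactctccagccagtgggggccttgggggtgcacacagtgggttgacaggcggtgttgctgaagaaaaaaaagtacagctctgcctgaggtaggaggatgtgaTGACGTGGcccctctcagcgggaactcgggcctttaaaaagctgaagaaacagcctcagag

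Derl3 held the ER stress response element on its minus strand, 156 to 138 bases before the start, an arrangement present in 0.113% of 32851 promoter windows of that length. It also held CCACGT 169 to 164 bases before the start, as did 6.91% of all windows. Pou2af1 held TGACGTGG 61 to 54 bases before its start, present in 0.563% of windows, and the core CCACGT lies within that match on the other strand. The window of Tnfrsf17 held GAAAGTG, present in 4.01% of windows. Neither the octamer (1.60% of windows) nor the composite element (2.30%) was in any of the 9 windows. Jchain, Irf4, Prdm1, Sdc1, Tnfrsf13b and Xbp1 held none of the sequences searched for. These are matches of letters only, and no binding was measured.

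The gene lists from here on were also chosen with earlier results of these data known, so their counts and p-values are a description. Other plasma cell genes were described from a list of 10 beside the members. Of 9 tested, 7 were called higher and 1 lower at 2 years, with a median log2 fold change of 1.11, against 25.8% called higher and 26.2% called lower over all genes tested. Slamf7, a surface receptor of plasma cells, NK cells and macrophages, rose from a mean of 2.26 ± 1.07 CPM (SD, n = 4) to 20.7 ± 6.21 CPM, or by 3.20 on the log2 scale with an SE of 0.33 (edgeR adjusted p = 2.56e-05). Cd38, an ectoenzyme of plasma cells and other leukocytes, rose from 8.61 ± 0.758 to 21.5 ± 4.86 CPM (edgeR adjusted p = 0.000124). Tent5c, a poly(A) polymerase that stabilises secretory mRNA, rose 1.78-fold (edgeR adjusted p = 0.0026), while the translocation protein gene Tram2 fell 1.97-fold (edgeR adjusted p = 0.00168). Of the 9 genes 6 were highest in 2 years replicate 4. With the length and GC offset 4 of the 9 were called higher, and Fkbp11, an ER folding enzyme of secretory cells, went from 1.11 to 0.29.

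The antibody genes themselves could not be followed. All 12 constant segments in the list, among them Ighm, Igha, Ighg2b and Igkc, and all 260 immunoglobulin segment symbols were listed at 0 in all 8 libraries, including the library with 31550 Jchain counts. These zeros are not read as absence of antibody mRNA, and antibody class is not analysed here.

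B cell genes were higher at 2 years in every tested case. Of 14 genes 12 were tested and 12 were called higher (25.8% of all genes tested), with a median log2 fold change of 3.66. Cd79b, a signalling chain of the B cell receptor, was at 5.34, 10.96, 10.6 and 22.0 CPM in 2 years replicates 1 to 4, against 0.424 to 0.655 CPM at 12 weeks (log2 fold change 4.58, SE 0.43, edgeR adjusted p = 1.52e-05). Cd72, a B cell coreceptor also found on macrophages, rose from 4.25 ± 0.656 to 48.4 ± 5.66 CPM (SD, n = 4; edgeR adjusted p = 2.03e-07). The kinase gene Blk rose 8.13-fold and the tetraspanin gene Cd37 3.08-fold. Of the 11 B cell genes with at least 10 counts in each 2-year library, 10 were highest in replicate 4, as were 9 of the 10 plasma cell genes, and Cd72 was the exception among the B cell genes. The ratio of Jchain to B cell transcripts still differed between libraries. Per 100 Cd79b counts there were 3906 Jchain counts in replicate 1, 6210 in replicate 2, 2796 in replicate 3 and 4968.5 in replicate 4. Per 100 Ms4a1 counts there were 3689, 9791, 6076 and 5789 in replicates 1 to 4, and per 100 Cd79a counts 4035, 6849, 2745 and 3266. Replicate 2 was highest by each of these genes, and the order of the other libraries depended on the gene used.

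Genes listed as B cell and germinal centre regulators gave a mixed picture. Of 7 tested, 4 were called higher and 1 lower, with a median log2 fold change of 0.81. Over all genes tested, 25.8% were called higher and 26.2% lower. Ebf1, Bcl6 and S1pr2 already had 12-week means of 147, 39.0 and 23.5 CPM, against 0.263 CPM for Pax5. Which cells carried the RNA of these genes was not measured. Spib, an Ets factor of B cells and plasmacytoid dendritic cells, was at 4.68, 6.61, 3.64 and 12.5 CPM in 2 years replicates 1 to 4 against 0.0437 to 0.203 CPM at 12 weeks (log2 fold change 5.69, SE 0.54, edgeR adjusted p = 1.17e-05). Pax5, the factor that maintains B cell identity and that Prdm1 represses, rose from 0.263 ± 0.113 to 3.91 ± 3.16 CPM (log2 fold change 3.86, edgeR adjusted p = 0.000364), or 3.13 without 2 years replicate 4. The class II transactivator gene Ciita rose 3.27-fold and the receptor gene S1pr2 1.76-fold. Bach2, which delays plasma cell formation, fell by 0.56 on the log2 scale (edgeR adjusted p = 0.049), a call kept in only 6 of 17 alternative fits. It was lost when any 1 of the 4 libraries at 12 weeks or replicate 1 or 2 at 2 years was left out. The value for Bach2 was 0.05 once length and GC were offset.

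The secretory machinery that Xbp1 serves was described by lists of ER genes. Of 16 genes of entry into the ER and signal peptide processing, 12 were called higher and 1 lower (median log2 fold change 0.67). Of 22 listed genes of ER folding and degradation, 11 were called higher and 1 lower (median 0.33). Over all genes tested, 25.8% were called higher and 26.2% lower. Sec61g, a translocon subunit, rose from 37.0 ± 6.52 to 105.1 ± 25.1 CPM (edgeR adjusted p = 7.76e-05), Ssr4 rose 2.59-fold, the signal peptidase subunit gene Spcs2 1.90-fold and the signal recognition particle gene Srp9 1.80-fold. Sdf2l1, an ER chaperone partner, rose from 8.68 ± 2.23 to 27.5 ± 5.32 CPM (edgeR adjusted p = 6.72e-05), while Derl1, a relative of Derl3 that most cells express, rose 1.66-fold, Manf 1.60-fold and Dnajb9 1.55-fold. Of the 16 entry genes 8 were highest in 2 years replicate 3 and 3 in replicate 4, whereas 12 of the 22 folding genes were highest in replicate 4 and 14 were lowest in replicate 2. The count of ER genes called higher, 23 of 38, went to 15 with the length and GC offset, where Ssr4 was at 0.55 and Srp9, at 0.21, was no longer called.

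Ligands and receptors of plasma cell survival and homing were mostly higher. Of 13 tested, 10 were called higher and 0 lower, with a median log2 fold change of 3.57. Over all genes tested, 25.8% were called higher and 26.2% lower. Cxcr4, the receptor that draws plasma cells to stromal Cxcl12, rose from 1.90 ± 0.191 to 24.9 ± 2.61 CPM (SD, n = 4; edgeR adjusted p = 2.03e-07), and Cxcr3, a receptor of effector T cells and plasmablasts, rose 11.9-fold. Tnfsf13b (BAFF), a ligand of Tnfrsf13b, was at 49.2, 44.5, 79.7 and 43.7 CPM in 2 years replicates 1 to 4 against 11.4 to 15.6 CPM at 12 weeks (log2 fold change 1.97, SE 0.21, edgeR adjusted p = 2.56e-05). The B cell chemokine gene Cxcl13 was at 44.8, 38.6, 49.7 and 31.0 CPM in the same 4 libraries (log2 fold change 6.64, SE 0.28; 5.91 with the length and GC offset). Both ligands were highest in replicate 3 and lowest in replicate 4, whereas 9 of the 10 plasma cell genes were highest in replicate 4. Of 7 tested genes of helper T cells in B cell follicles, 6 were called higher and 1 lower (median 2.61), with Pdcd1 up 15.8-fold, Il21r 6.63-fold, Icos 6.08-fold and Cd40, which B cells and myeloid cells carry, 3.58-fold. Of 8 cell cycle genes 6 were called higher and 1 lower, against 25.8% and 26.2% of all genes tested, with Aurkb up 4.42-fold, Cdk1 2.78-fold, Ube2c 2.73-fold and Ccnb1 2.65-fold. Mki67, the proliferation marker Ki-67, was the gene called lower, from 19.5 ± 7.87 to 7.29 ± 4.81 CPM (edgeR adjusted p = 0.035). The log2 fold change of Mki67 was -1.42, and its call was lost in 9 of 17 alternative fits. These included the fits without 12 weeks replicate 1 (-1.35) or 2 (-1.16) and without 2 years replicate 1 (-1.26) or 3 (-1.49). With the length and GC offset the value for Mki67 was -0.78. Top2a, at 0.81, was not called (edgeR adjusted p = 0.0637).

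**Figure D4:**
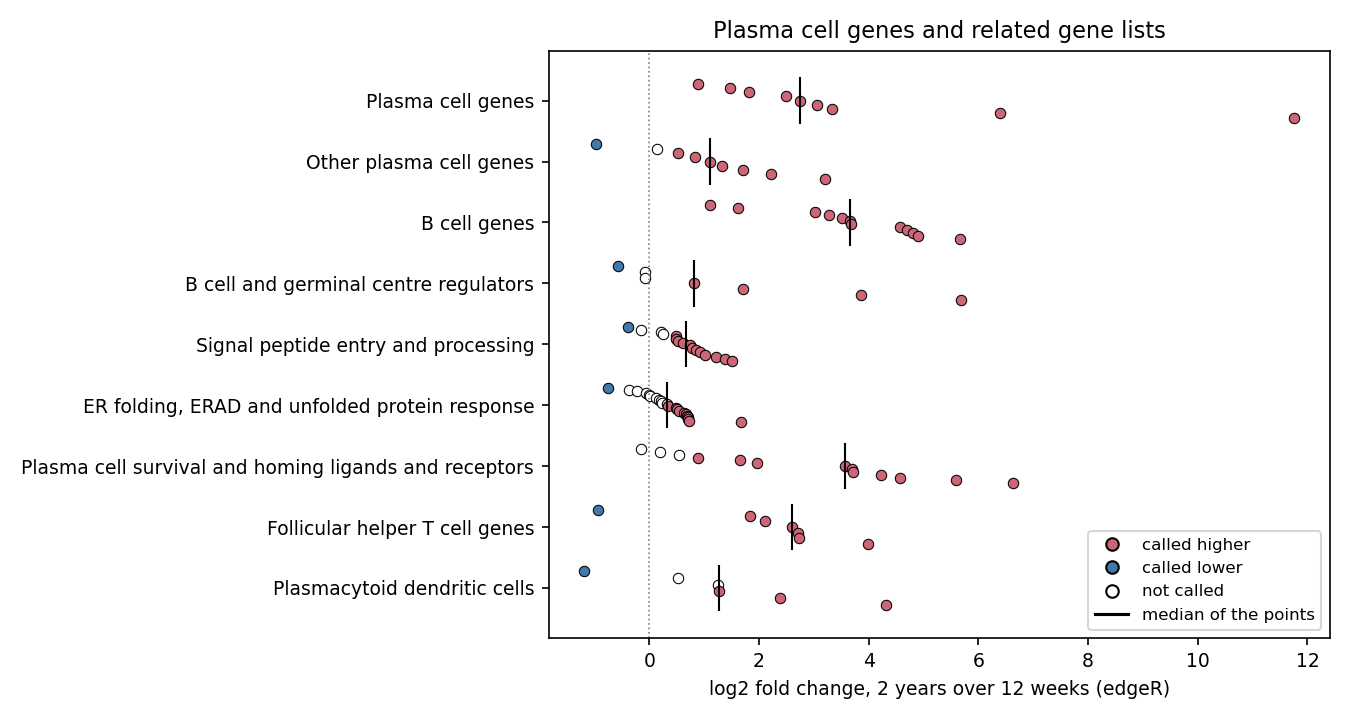
Log2 fold change, 2 years over 12 weeks, of each tested gene in the plasma cell genes and 8 related lists, coloured by its call, with black bars at the median of the points. Mzb1 is not drawn because its 12-week counts were all 0. The 2 ER lists have medians of 0.67 and 0.33.

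Markers of other cell types also differed between the ages and between libraries, and their part in the results above was not tested. Over all genes tested, 25.8% were called higher and 26.2% lower. The 10 macrophage markers were all called higher and summed to 673 to 944 CPM at 12 weeks and 2673 to 3904 CPM at 2 years, with none of the 10 highest in 2 years replicate 4. The 10 T and NK cell markers, all called higher as well, summed to 6.98 to 17.99 CPM at 12 weeks and 57.7, 66.7, 81.9 and 99.0 CPM in 2 years replicates 1 to 4. Among 8 genes for plasmacytoid dendritic cells, which can also express Jchain, 3 of 6 tested were called higher and 1 lower. The 3 were Pacsin1, Irf8 and Ly6d, which is also the gene nearest to Jchain among the libraries at 2 years and rose 19.8-fold (edgeR adjusted p = 0.00016). The defining receptor Siglech fell from 3.35 ± 0.192 to 1.49 ± 0.745 CPM (edgeR adjusted p = 0.0143), while Irf8, shared with macrophages and B cells, rose 5.21-fold. The 5 red blood cell genes were all called higher, by 5.31-fold to 7.36-fold, and summed to 442 to 724 CPM at 12 weeks and to 2322, 7930, 2474 and 1776 CPM in 2 years replicates 1 to 4. Their peak was in replicate 2, the library at the second rank for 9 of the 10 plasma cell genes. All 5 red blood cell genes were lowest in replicate 4, where 9 of the 10 plasma cell genes were highest.

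Lymph node stroma markers summed to 51.4, 52.2, 314.1 and 75.9 CPM in 2 years replicates 1 to 4 and to 9.43 to 17.6 CPM at 12 weeks. Most of that sum was the lymphatic chemokine Ccl21a, at 278 CPM in replicate 3, whose copies in the genome are nearly identical so that its counts are uncertain. The high endothelial genes Glycam1 and Madcam1 were at or near 0, with 2 and 4 counts over the group at 2 years. The mesothelial marker Upk3b, at 244 CPM in replicate 3 and 59.7 to 89.5 CPM in the other 2-year libraries, was high in the library where Sdc1 peaked. Without both libraries numbered 3 all 10 members were still called higher. They were chosen by this contrast, so nothing is read from that count.

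**Figure D5:**
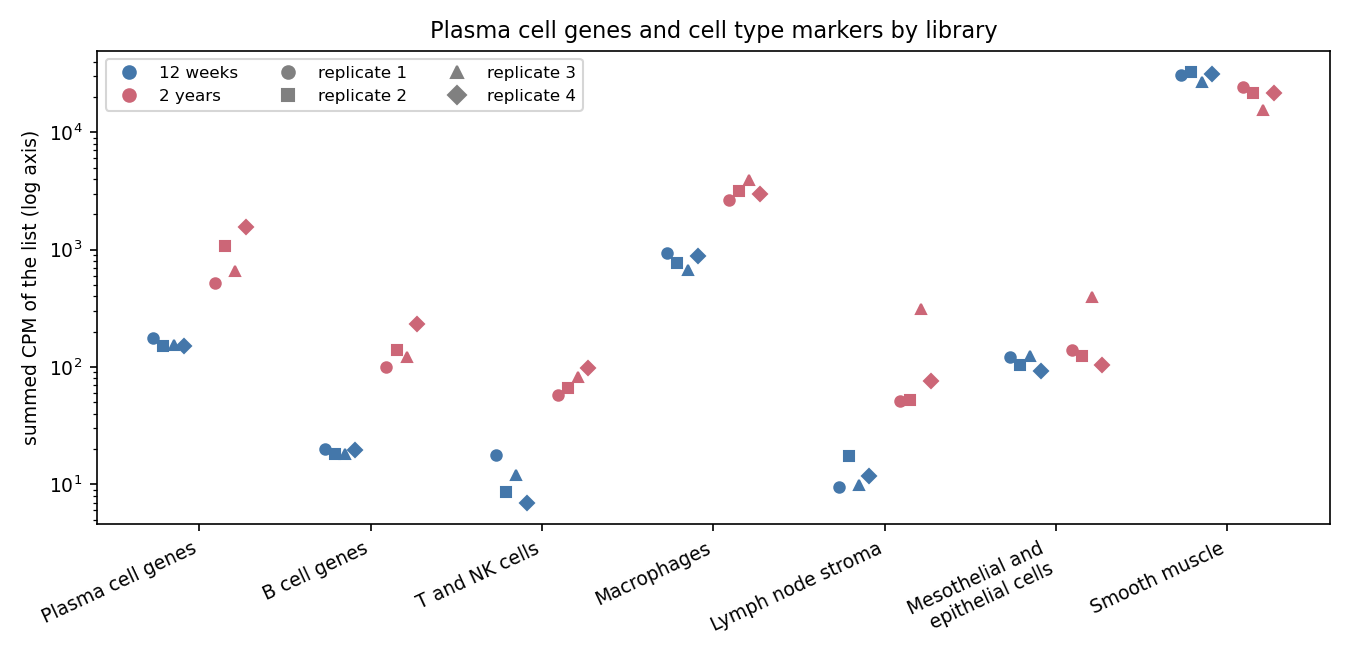
Summed CPM of the plasma cell genes and of 6 marker lists in each library on a log axis, 12 weeks in blue and 2 years in red, with marker shape giving the replicate. Plasma and B cell sums peak in 2 years replicate 4, while lymph node stroma and mesothelial sums peak in 2 years replicate 3.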

How the data were processed

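The deposited files give raw counts per gene symbol in 8 libraries, 1 table each, per the labels and the file headers. Total RNA from spin columns was sequenced on an Illumina NovaSeq, per the labels' protocols, and the submitters' processing notes name the build GRCm39. Aligner, counter, annotation and strand setting were not given in the sources used here. Age groups and replicate numbers come from the sample titles. Nothing in the labels says more than that the samples are separate, so p-values measure the spread between these libraries.

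The members and gene lists were chosen with earlier results of these data known. Genes passing filterByExpr (13978) were scaled by TMM and entered edgeR's quasi-likelihood test with age as the only term, with Benjamini-Hochberg adjustment over all of them and a threshold of 0.05. Log2 CPM uses a prior count of 2. The SE is the fold change over the root of F. Lengths and GC shares are those of the longest coding transcript in GENCODE M21 (GRCm38), found for 97.4% of genes tested. The offset removes a trend on both per library (natural splines, 4 degrees of freedom). DESeq2 and limma voom were alternatives. Named genes are all 10 members, up to 4 called genes of each pathway list by smallest p, up to 1 of each marker list, and the 8 nearest to Jchain. Fkbp11, Bach2, Ebf1, Bcl6, Ms4a1, Cd79a, Siglech, Pacsin1, Tox2, Cd40lg, Mki67, Top2a, Glycam1, Madcam1 and the immunoglobulin segments were chosen after their values were seen. Tested on simulated counts for 2 years against 12 weeks (13881 genes), the fit recovered 60% of genes changed 2-fold and 92% of those changed 4-fold, with 3.80% of calls false. The simulation changed few genes, as many up as down, whereas 52% of the genes tested in the data were called. These rates therefore need not hold for the data. Replicate pairs differed by 22.9 to 152 times counting variance. The tools were edgeR 4.0.16, DESeq2 1.42.0 and limma 3.58.1 under R 4.3.3.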

Additional observations from a re-analysis of the deposited data

Results flagged for a closer look

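In groups of 4 libraries, a library whose gap to the nearest other exceeded Dixon's 95% critical share of the group's range was singled out. Of 130 groups of values looked at (2 ages for the members, the genes named by rule, the genes nearest to Jchain, Fkbp11, Bach2, Siglech, Mki67 and Top2a), 13 met this, where chance gives about 1 in 20. Among the members, Prdm1 in 2 years replicate 4 was at 11.2 CPM against 4.48 to 5.37 CPM in the other 3 libraries, and Irf4 in 12 weeks replicate 3 was at 6.99 CPM against 3.54 to 4.01 CPM. In 2 years replicate 3, Tnfsf13b was at 79.7 CPM (43.7 to 49.2 elsewhere at that age), Upk3b at 244 CPM (59.7 to 89.5) and Ccl21a at 278 CPM (27.5 to 57.6). In 2 years replicate 2, Hbb-bs was at 3392 CPM (771 to 1073) and Tnnt2 at 65.5 CPM (115 to 122). At 12 weeks, Spcs2 was at 56.9 CPM in replicate 1 (50.6 to 51.4), Cxcr4 at 1.62 CPM in replicate 2 (1.97 to 2.03) and Acta2 at 12193 CPM in replicate 3 (14176 to 14532). Cd300e was at 0.0740 CPM in 12 weeks replicate 3 (0.0385 to 0.0437). All these Cd300e values lay below the level of 3 counts in a 12-week library (0.111 to 0.131 CPM). Fkbp11 was at 4.06 CPM in 12 weeks replicate 1 (1.54 to 1.96) and at 5.90 CPM in 2 years replicate 4 (4.79 to 4.90).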

How the results depend on the processing

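All 10 members kept their direction and were called in each of the 17 alternative fits that tested them, or 169 pairs of member and fit. The fits share libraries and the members were chosen by this contrast, so nothing is read from that count. Tnfrsf17 was not tested with a minimum mean of 1 CPM. With the length and GC offset 4 other plasma cell genes and 15 ER genes were called higher, and with the offset and the replicate block 4 and 12, against 7 and 23; other counts stayed within 1.5 times their value, including those without both libraries numbered 3, an alternative chosen after seeing the data. With the offset and the replicate block Jchain was at 11.11, Derl3 at 2.59 and Cd79b at 3.92. Col1a1, at -0.40 and not called, was at 0.12 with the offset and 0.039 with the offset and the block, and Tnnt2, at 0.55 and not called, was at -0.0024 with the offset. Bach2 was at 0.053 with the offset and 0.030 with the offset and the block, and Lax1 between -0.85 and 0.027 with 1 library left out. The cause of these shifts was not tested. The replicate numbers do not pair the libraries. Same-numbered libraries correlated at -0.308 to 0.051 in their deviations, and in 0 of 4 pairs was the own number the best match. With the replicate block 10 members were called, and all genes called came to 6432 against 7272. The counts behind Tnfrsf17 and Derl3 in single libraries limit their precision.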
